A study of Mus musculus with 10 samples.

Results

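Car13, Lipg, Muc1, Mab21l3, Gp2 and Kcne3 are 6 genes with no place in the usual lists of dendritic cell activation, and they were chosen by their CpG minus unstimulated values, being named for a large rise after CpG. They were followed through 10 arrays of mouse splenic CD11c+ dendritic cells (DCs), 1 array per sample, among 22180 genes that had a probe set with exactly 1 gene symbol. All 6 had 1 such probe set, and all 6 passed the filter on low values that left 13371 genes for testing. CpG is unmethylated DNA that the endosomal receptor Tlr9 recognises, and DCs are the cells that take up antigen and present it to T cells. Wild-type (WT) mice and C3ar1-/-C5ar1-/- mice, called DKO here because they lack both the C3a and the C5a receptor, received 100 µg CpG or vehicle, and splenic DCs were isolated with magnetic beads 4 h later. There were 2 WT unstimulated, 3 WT CpG, 2 DKO unstimulated and 3 DKO CpG arrays. The labels give no age, sex or background strain, mention a first batch without saying which arrays it holds, and do not say whether each array is a separate animal, so the errors measure the spread between these samples, which may be technical.

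The 6 genes do different work. Carbonic anhydrases interconvert carbon dioxide and bicarbonate, and Car13 is a cytosolic member. Lipg encodes endothelial lipase, a secreted enzyme that cleaves phospholipids of high-density lipoprotein. Muc1 is a transmembrane mucin best known from the apical surface of glandular epithelium, and Gp2 is a membrane-anchored glycoprotein of pancreatic zymogen granules and of intestinal M cells, where it binds bacterial fimbriae. Kcne3 is a small single-pass subunit that changes the gating of voltage-gated potassium channels such as Kcnq1. Mab21l3 belongs to the Mab21-like family, which also holds the DNA sensor Cgas.

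The sequence before the start site was searched for 4 of the 6 genes in RefSeq tables of build GRCm38.p6. Car13 and Lipg were not searched, so nothing is said of their motifs. Shown are 3 stretches of 250 bases, because they hold the motif matches found. Capitals mark matches to the TATA box (TATAAA), the PU.1 site (GAGGAA, read as TTCCTC on the other strand) or the AP-1 site (TGANTCA).
Muc1 (chr3:89228806-89229055, plus strand): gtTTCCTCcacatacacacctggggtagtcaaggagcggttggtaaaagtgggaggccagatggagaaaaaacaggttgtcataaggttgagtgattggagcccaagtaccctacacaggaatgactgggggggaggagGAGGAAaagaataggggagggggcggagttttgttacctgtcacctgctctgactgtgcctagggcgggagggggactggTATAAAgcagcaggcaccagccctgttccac
Gp2 (chr7:119459273-119459522, minus strand): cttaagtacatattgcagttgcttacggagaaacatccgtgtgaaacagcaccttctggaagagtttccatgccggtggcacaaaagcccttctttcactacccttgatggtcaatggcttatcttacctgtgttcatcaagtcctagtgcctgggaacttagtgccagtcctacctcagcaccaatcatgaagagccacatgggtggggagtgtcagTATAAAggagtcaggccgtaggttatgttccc
Kcne3 (chr7:100176420-100176669, plus strand): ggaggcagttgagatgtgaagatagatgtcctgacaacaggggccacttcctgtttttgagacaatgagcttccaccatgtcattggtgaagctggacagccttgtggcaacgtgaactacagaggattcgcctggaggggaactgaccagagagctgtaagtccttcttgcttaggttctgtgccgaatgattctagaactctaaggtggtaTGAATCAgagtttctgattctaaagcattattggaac

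Both strands were searched in windows from 250 bases before to 50 bases after a start, which for Gp2 added a PU.1 match after the start. The TATA box match began at position -31 from the start in Muc1 and at -32 in Gp2, and 13.6% of all 32851 windows held one. PU.1 letters were in 28.3% of windows and AP-1 letters in 7.81%. No member window that was searched held the NF-kB consensus (8.46% of windows), the interferon-stimulated response element (3.44%) or the STAT site TTCNNNGAA (8.30%). The Mab21l3 window and the second Kcne3 window held none of the 6 motifs. These are matches of letters in a short window. The AP-1 letters of Kcne3 match on both strands at the same place.

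The deposited values are log2 intensities, and array medians over all probe sets lay between 5.50 and 5.56. All 10 markers of conventional DCs with a probe set were above the median in every array. The mean of the Y-linked genes Eif2s3y, Kdm5d and Uty was 7.33 to 7.93 in DKO unstimulated 1, DKO CpG 1 and DKO CpG 2 and 3.21 to 3.68 in the other 7 arrays. These 3 are also the DKO arrays whose sample titles carry numbers under 20. No WT array had the high signal, so among titles under 20 genotype and Y-linked signal cannot be told apart. Of the targeted genes, C3ar1 lay at 5.80 to 6.59 over the WT arrays against 5.27 to 5.64 over the DKO arrays, and C5ar1 at 5.51 to 7.32 against 4.42 to 4.99. Neither overlapped between genotypes, but neither passed the test of DKO minus WT averaged over stimulation (limma adjusted p = 0.0888 and 0.0786). Whether these probes fall inside the deleted sequence was not analysed here.

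Car13 lay between 5.42 and 6.72 without stimulation and far above the array medians after CpG. It measured 6.72 and 5.60 in WT unstimulated, and 9.29, 9.59 and 9.50 in WT CpG arrays. The DKO unstimulated arrays gave 5.80 and 5.42, and the DKO CpG arrays 8.69, 8.22 and 8.14. Every CpG array was above every unstimulated array, every WT CpG array was above every DKO CpG array, and the unstimulated groups overlapped. CpG minus unstimulated was 3.30 ± 0.29 (standard error of the contrast) on the log2 scale in WT, a 9.86-fold difference, and 2.74 ± 0.29 in DKO, 6.70-fold. Among the rises of all tested genes Car13 had rank 5 in WT and rank 11 in DKO. The choice of members used these CpG contrasts, so here and below their CpG differences are a description with no test.

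Lipg had unstimulated values below every array median. It measured 5.33 and 4.92 in WT unstimulated and 8.19, 8.60 and 8.14 in WT CpG arrays. Its DKO values were 5.33 and 4.48 in unstimulated arrays, against 7.42, 7.27 and 6.60 in CpG arrays. The 3 WT CpG arrays were all above the 3 DKO CpG arrays, and DKO CpG 3 was the lowest of the 6. The CpG difference was 3.19 ± 0.29 in WT (9.10-fold) and 2.19 ± 0.29 in DKO (4.57-fold), with a rank of 6 in WT and 33 in DKO.

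Muc1 followed the same order of groups. It measured 6.16 and 5.46 in WT unstimulated and 8.93, 9.15 and 8.59 in WT CpG arrays, and 5.31 and 5.74 in DKO unstimulated and 8.06, 7.48 and 7.77 in DKO CpG arrays. The CpG groups did not overlap and the unstimulated groups did. The CpG difference was 3.08 ± 0.25 in WT (8.46-fold, rank 8) and 2.24 ± 0.25 in DKO (4.74-fold, rank 30).

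Mab21l3 was well above the array median in all 10 arrays. It measured 8.93 and 8.58 in WT unstimulated and 11.45, 11.40 and 11.52 in WT CpG arrays. DKO arrays read 8.10 and 8.12 in the unstimulated and 11.30, 11.20 and 10.84 in the CpG group. WT was above DKO in both conditions with no overlap. The CpG difference was 2.71 ± 0.16 in WT (6.52-fold, rank 18) and 3.00 ± 0.16 in DKO (8.02-fold, rank 8), so it was the only 1 of the 6 with the larger value in DKO.

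**Figure D1:**
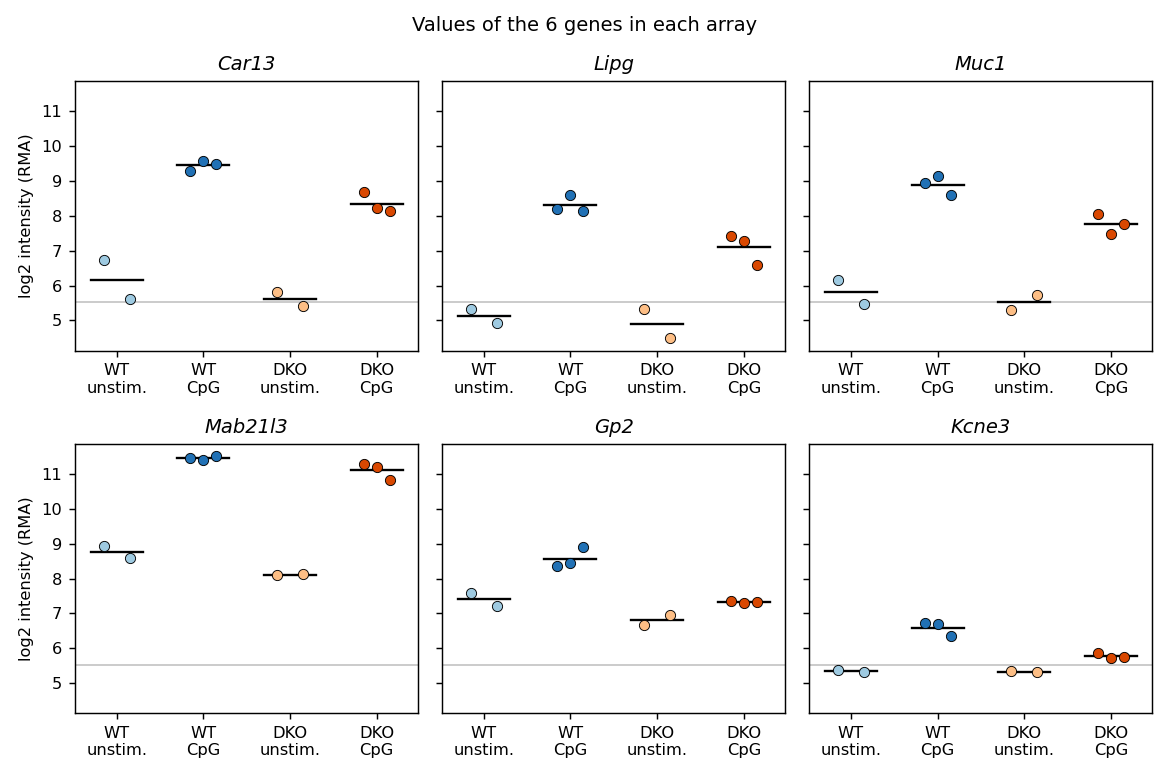
Log2 intensity (vertical axis) of the 6 genes in each of the 10 arrays (points) by group, with the group mean as a black line and the range of array medians, 5.50 to 5.56, as a grey band. CpG arrays are above unstimulated arrays of the same genotype for all 6 genes, and WT CpG arrays are above DKO CpG arrays.

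The description as strongly induced held less well for Gp2 and Kcne3. Gp2 measured 7.60 and 7.21 in WT unstimulated and 8.35, 8.45 and 8.92 in WT CpG arrays. The DKO unstimulated values were 6.66 and 6.95 and the DKO CpG values 7.35, 7.30 and 7.34, so that the DKO CpG arrays lay within the range of the WT unstimulated arrays. Its CpG difference was 1.17 ± 0.18 in WT (2.25-fold, rank 353) and 0.53 ± 0.18 in DKO (1.44-fold, rank 855).

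Kcne3 measured 5.38 and 5.33 in WT unstimulated and 5.35 and 5.31 in DKO unstimulated arrays, all 4 below the array medians. After CpG it measured 6.72, 6.69 and 6.34 in WT and 5.87, 5.71 and 5.76 in DKO, still close to the medians in DKO. The CpG difference was 1.23 ± 0.13 in WT (2.35-fold, rank 315) and 0.45 ± 0.13 in DKO (1.37-fold, rank 1087). The unstimulated values of Kcne3, like those of Lipg, lay below the array medians and are not shown to be above background, so the folds and ranks of both are relative to a level that may not have been measured. Muc1 was also below the array median in WT unstimulated 2 (5.46) and DKO unstimulated 1 (5.31), and Car13 in DKO unstimulated 2 (5.42). The same limit therefore holds in part for the folds and ranks of Muc1 and Car13.

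In WT, 6 of 6 members were among the called genes, meaning an adjusted p under 0.05, against 8.24% of all tested genes called higher. In DKO, 4 of 6 were called against 4.54%, Gp2 and Kcne3 being the exceptions. CpG arrays did not overlap unstimulated arrays for 6 of 6 members in each genotype, where 21.2% of tested genes in WT and 15.2% in DKO were higher without overlap. Since the rule chose the members on these contrasts, nothing is read from these counts.

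**Figure D2:**
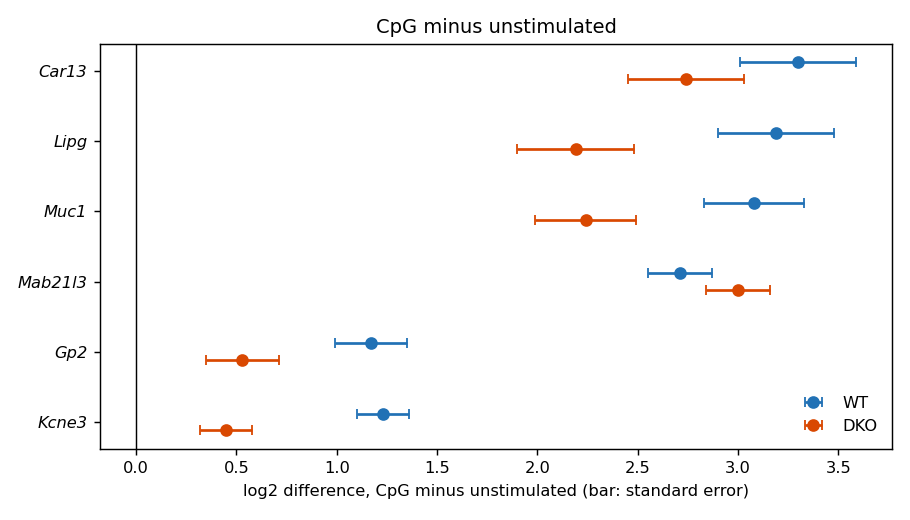
Log2 difference between CpG and unstimulated arrays (horizontal axis) for each gene in WT (blue) and DKO (orange), with standard errors from the limma fit as bars. Car13, Lipg, Muc1 and Mab21l3 lie between 2.19 and 3.30, Gp2 and Kcne3 between 0.45 and 1.23, and only Mab21l3 has the larger value in DKO.

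The genotypes were also compared, in contrasts the rule does not name. After CpG, DKO was lower than WT for 6 of 6 members, as were 47.2% of all tested genes. The groups did not overlap for any of the 6, where 7.58% of tested genes were lower without overlap. Gp2 was lower by -1.24 ± 0.16 (2.36-fold lower, limma adjusted p = 0.0247) and Kcne3 by -0.80 ± 0.12 (1.75-fold lower, limma adjusted p = 0.0440), and both passed, in a contrast in which 0.12% of genes, 16 in all, were called and 0.0673% were called lower. Muc1 at -1.12 ± 0.22 (limma adjusted p = 0.0679), Lipg at -1.22 ± 0.26 (0.0808) and Car13 at -1.11 ± 0.26 (0.0922) did not pass, although their differences were of like size. Mab21l3 stood at -0.34 ± 0.14 (limma adjusted p = 0.295), with an interval of the difference from -0.65 to -0.03. The contrast shares the WT CpG and DKO CpG arrays with the comparisons that named the members. Gp2 and Kcne3 were also among the 16 called genes already known when the members were chosen. These values and calls are therefore no independent support.

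The 2 calls after CpG were near the threshold. When each array was left out in turn, Gp2 kept its call in 6 of 10 fits (limma adjusted p = 0.021 to 0.125), losing it without WT CpG 1 (0.0740), WT CpG 2 (0.125), DKO CpG 2 (0.109) or DKO CpG 3 (0.0637). Kcne3 kept it in 2 of 10 (0.0164 to 0.159), those without WT CpG 3 or DKO CpG 1. With these arrays left out, its difference stayed between -0.92 and -0.73, and that of Gp2 between -1.35 and -1.07.

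Within each run of title numbers the WT CpG arrays were also the higher ones. DKO minus WT after CpG, for titles under 20 (2 arrays each) and for titles of 20 and over (1 array each), was -0.99 and -1.36 for Car13, -1.05 and -1.54 for Lipg, and -1.27 and -0.82 for Muc1. It was -1.07 and -1.58 for Gp2, -0.92 and -0.58 for Kcne3, and -0.17 and -0.68 for Mab21l3. The first value of each pair compares DKO arrays of high Y-linked signal with WT arrays of low signal, which cannot be told apart from genotype. The second value of each pair comes from 1 array against 1. With the title series as a block, Car13 (limma adjusted p = 0.0498), Muc1 (0.0371) and Lipg (0.0120) passed as well.

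These 3 genes passed or did not pass depending on the covariate. Since no WT array had high Y-linked signal, the slope on that covariate comes mainly from the DKO arrays. Among CpG arrays the slope rests on DKO CpG 3 against DKO CpG 1 and DKO CpG 2. Lipg was lowest in DKO CpG 3, at 6.60. With Y-linked signal as a covariate, DKO minus WT after CpG was -1.34 for Car13 (limma adjusted p = 0.0212), -1.70 for Lipg (0.000845) and -1.03 for Muc1 (0.0455), and it was -1.16 for Gp2 (0.00777), -0.83 for Kcne3 (0.0101) and -0.48 for Mab21l3 (0.0971). With neutrophil markers as a covariate, Lipg was at -0.64 (limma adjusted p = 0.54), Car13 at -1.02 (0.395) and Muc1 at -0.95 (0.355). The neutrophil markers themselves measured lower in DKO after CpG, with a median difference of -1.74. That covariate and genotype therefore cannot be cleanly told apart. With splenic macrophage markers, Lipg was at -1.03 (limma adjusted p = 0.025), Muc1 at -1.16 (0.0463) and Car13 at -1.02 (0.0752). Lipg (limma adjusted p = 0.0459) and Muc1 (0.0367) also passed when DKO CpG 1 was left out.

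Without stimulation no member passed in the fit of all 10 arrays, and Mab21l3 did with Y-linked signal as a covariate (limma adjusted p = 0.0398). The slope on that covariate comes mainly from the DKO arrays. In the fit without covariates DKO minus WT was -0.64 ± 0.17 for Mab21l3 (limma adjusted p = 0.862), -0.60 ± 0.20 for Gp2 (0.992), -0.55 ± 0.32 for Car13 (0.992), -0.28 ± 0.27 for Muc1 (0.993), -0.22 ± 0.32 for Lipg (0.993) and -0.02 ± 0.15 for Kcne3 (0.997). Mab21l3 and Gp2 did not overlap between the genotypes, as 15.9% of tested genes were lower without overlap in this comparison of 2 against 2 arrays, and the other 4 overlapped. Limma called 0.00748% of genes here, a single gene, and 4.63% had an unadjusted p under 0.05, among them Mab21l3 (limma unadjusted p = 0.00347) and Gp2 (0.013). The 95% interval for Kcne3, -0.35 to 0.30, holds 0, and that of Car13, -1.25 to 0.15, also allows a difference as large as the one after CpG. The unstimulated arrays also enter the CpG contrasts that chose the members, so these values are no independent support.

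Averaged over stimulation, Gp2 was lower in DKO by -0.92 ± 0.13 (limma adjusted p = 0.0315), where 0.0972% of genes were called and 0.0598% were called lower. The average contains the difference after CpG, in which Gp2 was already known as called, so this value is no independent support either. The call held in 2 of 10 fits with an array left out (0.0325 to 0.268), those without WT CpG 3 or DKO CpG 1, and it was lost without any of the other 8. The other 5 members were lower and did not pass, from -0.83 ± 0.20 for Car13 (limma adjusted p = 0.202) to -0.41 ± 0.09 for Kcne3 (0.173). With Y-linked signal as a covariate Lipg (limma adjusted p = 0.000972), Mab21l3 (0.0165) and Car13 (0.0243) passed, and with neutrophil markers as a covariate Gp2 did not (-1.24, 0.0907). The limits on the Y-linked and neutrophil covariates given above hold here too.

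**Figure D3:**
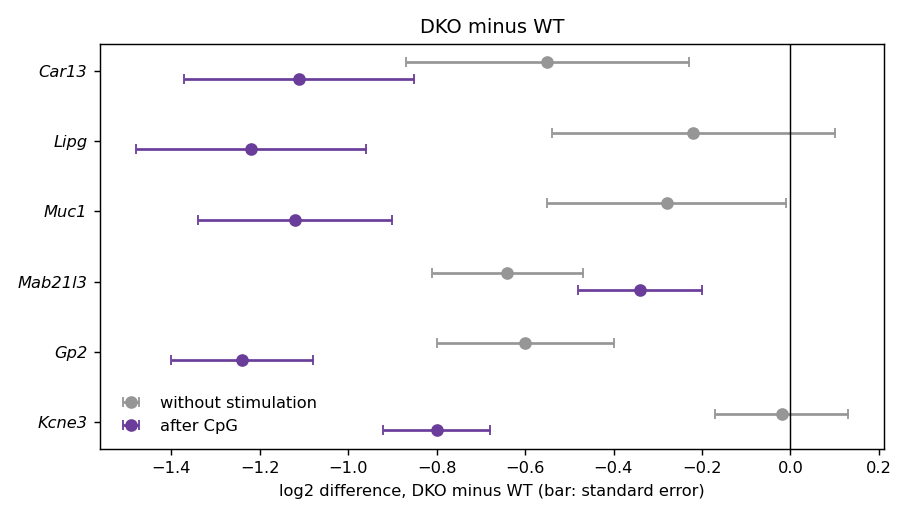
Log2 difference between DKO and WT (horizontal axis) for each gene, without stimulation (grey) and after CpG (purple), with standard errors from the limma fit as bars. After CpG the values run from -1.24 for Gp2 to -0.34 for Mab21l3, and without stimulation from -0.64 for Mab21l3 to -0.02 for Kcne3.

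The difference between the CpG effects of the genotypes is built from the contrasts that chose the members, and Gp2 and Kcne3 were already known as called between genotypes after CpG, so it is given with no test. DKO minus WT of the CpG difference was -0.99 ± 0.41 for Lipg, -0.84 ± 0.35 for Muc1, -0.78 ± 0.19 for Kcne3, -0.64 ± 0.26 for Gp2, -0.56 ± 0.41 for Car13 and 0.30 ± 0.22 for Mab21l3. Those of Lipg, Muc1, Mab21l3 and Car13 moved by over 1.5 times when 1 unstimulated array was left out. Lipg was at -0.57 without DKO unstimulated 1, Muc1 at -0.49 without WT unstimulated 2, and Mab21l3 at 0.12 without WT unstimulated 1 and 0.47 without WT unstimulated 2. Car13 ranged from -1.12 without WT unstimulated 1 to 0.00263 without WT unstimulated 2, Gp2 from -0.84 to -0.45 and Kcne3 from -0.90 to -0.71. Over all tested genes 0.00748% were called in this contrast, and 5.65% had an unadjusted p under 0.05. A call in one genotype's CpG contrast but not in the other's is not a difference between them.

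Among the CpG arrays of DKO, replicate 1 was the highest for 6 of 6 members, and the lowest value fell in replicate 2 for 3 members and in replicate 3 for the other 3. In WT CpG the highest value was in replicate 1 for 1 member, in replicate 2 for 3 and in replicate 3 for 2. The pooled standard deviation within groups was 0.13 for Kcne3, 0.18 for Mab21l3, 0.23 for Gp2, 0.33 for Muc1, 0.39 for Car13 and 0.40 for Lipg.

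Several members are best known from other cell types, and in bulk samples fewer cells of a type and less RNA per cell cannot be told apart. Of 14 pancreatic acinar markers, 9 were below the median in every array, among them the proteases Prss1, Cpa1 and Cpb1, and their summed linear intensity was 534 to 618 in WT unstimulated, 557 to 613 in WT CpG, 475 to 568 in DKO unstimulated and 482 to 616 in DKO CpG arrays. In WT, 2 of the 5 tested rose, Prss2 by 0.80 ± 0.24 (limma adjusted p = 0.0365) and Ctrc by 0.50 ± 0.15 (0.0378). The unstimulated mean of Prss2 in WT, 5.33, lay below the array medians. Of 12 epithelial markers, 7 including Epcam and Krt18 were below the median in every array, the summed level was 565 to 583, 612 to 615, 547 to 631 and 571 to 641 in the same order of groups, and none of 4 tested was called.

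Endothelial markers, relevant to Lipg, did not move as 1 group. Their summed level was 1590 to 1603, 1872 to 1996, 1366 to 1439 and 1467 to 1937. Of 9 tested, 4 fell in WT, such as Stab2 by -0.91 ± 0.16 (limma adjusted p = 0.00311) and Pecam1 by -0.61 ± 0.13 (0.00641), while Tek, Tie1, Emcn and Plvap were below the median in every array. The exception was Kdr, a receptor for vascular endothelial growth factor, which rose by 2.82 ± 0.35 in WT (0.000398) and by 2.04 ± 0.35 in DKO (0.00596).

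The neutrophil markers' summed level was 3397 to 4919 in WT unstimulated, 3677 to 12629 in WT CpG, 1216 to 1489 in DKO unstimulated and 1273 to 3746 in DKO CpG arrays, with 2 of 21 (Stfa2 and Stfa3) below the median in every array. Of 17 tested, 3 rose with CpG in WT and 1 in DKO, and 1 was lower in DKO after CpG, with a list median of -1.74 for that genotype difference. Without stimulation none of the 17 passed between genotypes, and the list median was -0.91. With their mean level as a covariate, DKO minus WT after CpG was -1.58 ± 0.21 for Gp2 (limma adjusted p = 0.0441) and -0.59 ± 0.16 for Kcne3 (0.261), so Kcne3 no longer passed. Since the markers differed between genotypes, this covariate and genotype cannot be cleanly told apart. The summed level of splenic macrophage markers was 27600 to 27644, 21542 to 24712, 8453 to 24398 and 7428 to 26668. With the macrophage mean as a covariate both genes passed (limma adjusted p = 0.0108 for Gp2 and 0.0268 for Kcne3). Without stimulation and after CpG, none of the 18 macrophage markers was called between genotypes, with list medians of -0.89 and -0.42, and 1 rose with CpG in each genotype.

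Markers of DCs and of B cells moved with CpG beside the members. Of 10 conventional DC markers, 5 fell and 2 rose in WT and 3 fell in DKO, with summed levels of 29247 to 30575 in WT unstimulated, 26243 to 30761 in WT CpG, 31594 to 32772 in DKO unstimulated and 28303 to 32898 in DKO CpG arrays. Of 9 markers of cDC1, a DC subset, 6 fell and 1 rose in WT and 4 fell in DKO, and in the same order the sums were 13525 to 14520, 6734 to 7489, 11640 to 14810 and 8371 to 9177. Of 13 tested B cell markers, 6 fell in WT (list median -0.61) and 3 in DKO (-0.54), with sums of 5685 to 7548, 5719 to 6797, 7191 to 7924 and 5695 to 8029, and Vpreb3 was below the median in every array. Calls were fewer in the other lists. In WT, 2 of 6 monocyte, 1 of 9 T cell, 1 of 5 erythroid and 1 of 9 plasmacytoid DC markers fell, 1 plasmacytoid DC marker rose, and none of 8 NK cell or 10 cDC2 markers was called. In DKO, 2 monocyte, 1 T cell, 1 erythroid and 2 cDC2 markers fell, and no NK cell or plasmacytoid DC marker was called. The part of any of these in the members' differences was not tested.

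The nearest relatives of each gene showed how far the rise was shared. Over 10 lists, 128 relatives were tested. In WT 14.8% of them rose and 14.8% fell, against 8.24% and 13.3% of all tested genes, and in DKO 7.81% rose and 7.03% fell, against 4.54% and 5.76%. The median CpG difference of the relatives was 0.03 in WT and 0.06 in DKO, and that of all tested genes -0.04 in both.

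Among 9 tested carbonic anhydrases, 1 rose and none fell in each genotype. It was Car5b, a mitochondrial member, from 5.17 to 7.11 in WT, by 1.93 ± 0.23 (limma adjusted p = 0.000324), and by 1.48 ± 0.23 in DKO (0.00389). Its unstimulated means, 5.17 in WT and 4.97 in DKO, lay below the array medians, so the limit given for Lipg holds for Car5b too. Car2, an abundant cytosolic member, stood at 0.13 (limma adjusted p = 0.914), and the list's median was 0.13 in WT and 0.09 in DKO. Bicarbonate and proton transporters fell in 3 of 14 cases in WT and 2 in DKO and none rose, including the endosomal sodium-proton exchanger Slc9a9 by -1.04 ± 0.20 in WT (0.00449).

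Lipases and their regulators went both ways. Of 22 tested, 4 rose and 4 fell in WT and 3 rose and 1 fell in DKO. The phospholipase Pla1a, of the same lipase family as Lipg, rose by 1.22 ± 0.18 in WT (limma adjusted p = 0.000996) and 0.92 ± 0.18 in DKO (0.0108). Its unstimulated means, 5.16 in WT and 4.90 in DKO, also lay below the array medians. Furin, a protease that cleaves endothelial lipase, rose by 0.87 ± 0.16 in WT and 0.69 ± 0.16 in DKO, and Lipa, the lysosomal acid lipase, fell by 1.44 in WT and by 0.90 in DKO. Of 21 genes of lipoprotein handling 2 rose and 4 fell in WT, and 1 rose and 1 fell in DKO. The scavenger receptor Cd36 fell by 1.78 in WT (limma adjusted p = 0.000167), Scarb1, the receptor for high-density lipoprotein, fell by 1.03 (0.00702), and the fatty acid carrier Fabp5 rose by 1.34 (0.000866).

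No other mucin or sialomucin was called in either genotype, out of 9 tested, with medians of 0.03 and -0.02. The enzymes that build mucin-type sugar chains were split, with 4 of 20 risen and 4 fallen in WT and 1 risen and 4 fallen in DKO. Galnt7 rose by 0.90 ± 0.14 in WT (limma adjusted p = 0.00129) and 1.08 ± 0.14 in DKO (0.00149), while Galnt12 fell by 1.22 in WT and fell by 1.06 in DKO. No zona pellucida domain protein, the group to which Gp2 belongs, was called among 3 tested. Of 10 tested genes known from M cells, 5 were called higher in WT and 3 in DKO, and none was called lower. Over all tested genes 8.24% were called higher in WT and 4.54% in DKO. The called genes were led by Marcksl1 at 1.16 ± 0.12 and 0.85 ± 0.12. They included Relb, a subunit of NF-kB, at 0.61 ± 0.12 and 0.49 ± 0.12. Not called were Spib at -0.10 ± 0.23 in WT and -0.61 ± 0.23 in DKO, Pglyrp1 at -0.44 ± 0.30 and -0.83 ± 0.30, and Aif1 at -0.49 ± 0.25 and 0.03 ± 0.25.

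In the Mab21 family and its signalling partners 2 of 6 rose and 2 fell in WT, and 1 fell in DKO. Cgas rose by 0.93 ± 0.24 in WT (limma adjusted p = 0.0200) and was at 0.57 ± 0.24 in DKO (0.174), and Sting1, which acts downstream of Cgas, rose by 0.84 ± 0.16 in WT (0.00449). Of 14 tested genes among Kcne subunits and potassium channels, 1 rose and 2 fell in WT and 1 rose in DKO. Kcnn4, a calcium-activated channel of immune cells, fell by 1.16 in WT (0.00109), and Kcnq1, the known partner of Kcne3, was at 0.13 (0.747) with group means of 5.46 to 5.82, near the array medians.

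**Figure D4:**
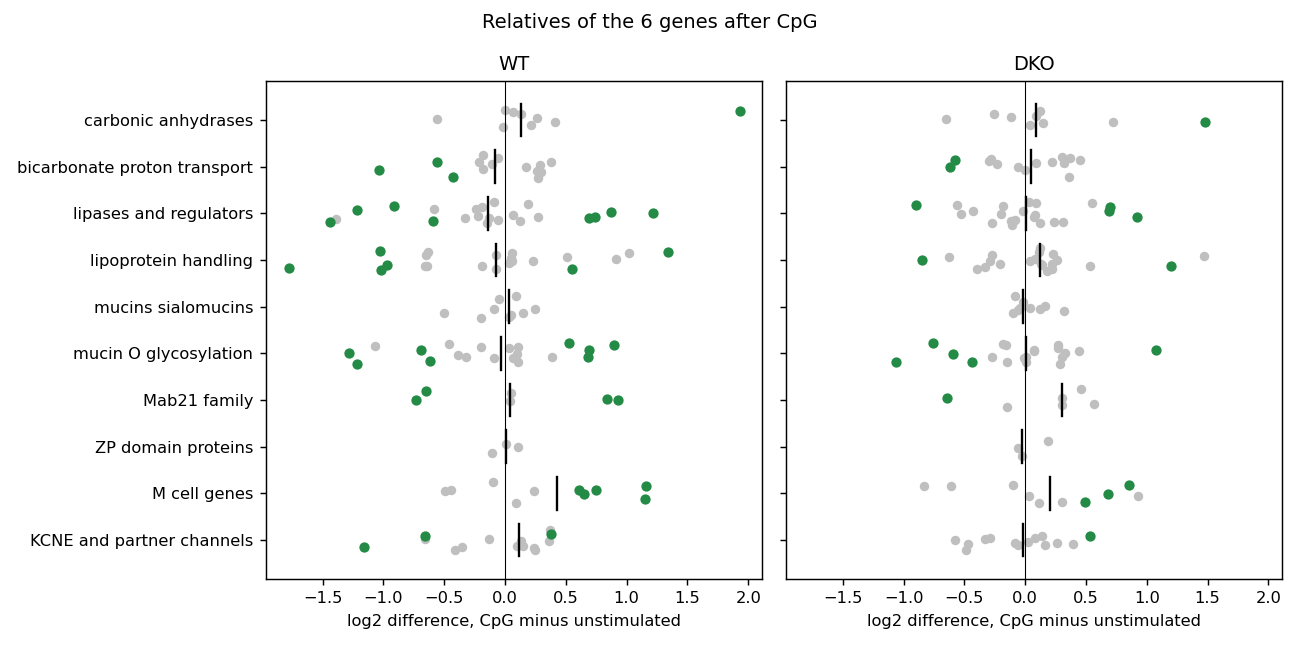
Log2 difference between CpG and unstimulated arrays (horizontal axis) of tested relatives in 10 gene lists, in WT (left) and DKO (right). Green points have an adjusted p under 0.05, grey points do not, and black lines mark list medians, which run from -0.14 to 0.42 in WT.

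Genes beside the members on the chromosome were also examined. Of the 24 nearest tested genes, 2 on each side of a member, 4 rose and 1 fell in WT and 3 rose in DKO, with medians of 0.02 and 0.08. That is 16.7% higher and 4.17% lower in WT and 12.5% higher in DKO, where over all tested genes 8.24% and 13.3% were called in WT and 4.54% higher in DKO. Slc22a15, a solute carrier and the nearest tested gene after Mab21l3, rose by 1.03 ± 0.21 in WT (limma adjusted p = 0.00573) and 1.14 ± 0.21 in DKO (0.00834). Lipt2, a lipoyl transferase near Kcne3, rose by 0.84 ± 0.18 and 0.78 ± 0.18, while Pgm2l1 on the other side fell by 0.76 in WT. Rbis, directly before Car13, rose by 0.49 ± 0.15 in WT (limma adjusted p = 0.0468) and by 0.57 ± 0.15 in DKO (0.0428). Car1 and Car3, the tested genes that follow Car13, were at 0.00 ± 0.58 and -0.02 ± 0.15 in WT. Trim46, next to Muc1, rose by 0.50 ± 0.13 in WT (limma adjusted p = 0.0205).

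The profiles most like those of the members were found by the root mean square difference over the 10 arrays of values centred on each gene's mean. For Car13 they were the cytokine gene Il6 (0.222), the costimulatory receptor gene Slamf1 (0.228) and the cytokine gene Il27 (0.306), where the median over all genes compared was 1.61. Il27 was also the nearest to Lipg (0.297) and to Muc1 (0.274), and Il12b, Il6 and Il27 were nearest to Mab21l3 (0.289, 0.289 and 0.293). Il27 stood among the 3 nearest of 4 members and Il6 of 3. Muc1 was next followed by Cd70 (0.308) and Cd40 (0.320), ligand and receptor of the tumour necrosis factor families, and Car13 itself was the second nearest to Lipg (0.315).

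Gp2 and Kcne3 had other neighbours in profile. Nearest to Gp2 were the inhibitory receptor gene Pirb (0.126), the ubiquitin ligase gene Mid1 (0.244) and the cytokine gene Il15 (0.312), where the median over all genes was 0.728. Pirb measured lower in DKO after CpG by -1.18 ± 0.17. That value is given with no test, because Pirb was chosen for its likeness to Gp2 over these same arrays. Nearest to Kcne3 were Tagln2 (0.139), an actin-binding protein, Ikzf4 (0.143), a zinc finger factor, and Apol10b (0.159), with a median over all genes of 0.571. A root mean square difference of this kind is a description over 10 arrays that share the same CpG and genotype contrasts.

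**Figure D5:**
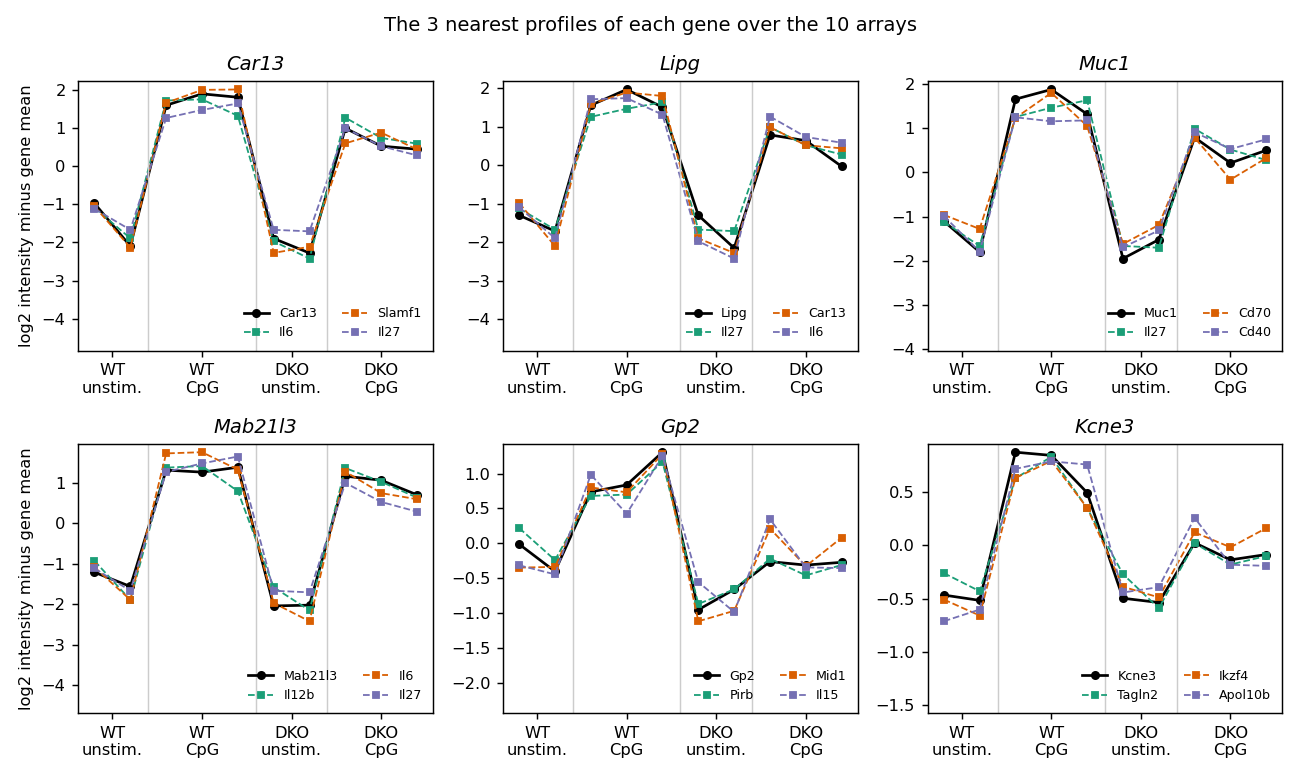
Log2 intensity minus the gene's own mean (vertical axis) in the 10 arrays, ordered by group, for each of the 6 genes (black) and the 3 genes nearest in profile (dashed). Il27 is among the 3 nearest for Car13, Lipg, Muc1 and Mab21l3, and Pirb follows Gp2 at a root mean square difference of 0.126.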

How the data were processed

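RNA of 10 samples was measured on Affymetrix Mouse Gene 2.0 ST arrays. The authors deposited log2 intensities, 1 per probe set, and the submitters' processing notes name RMA and Affymetrix Expression Console. RMA corrects background, equalises the arrays and summarises probes, which compresses differences near background. The sources used here give no tool version, genome build or batch of each array.

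Of 41345 probe sets, 23521 had 1 symbol, 1814 several and 16010 none. For each gene the probe set with the highest mean was kept. Genes above the array median in at least 2 arrays were tested. The number of arrays limits the precision. All 10 arrays entered 1 limma 3.58.1 fit (lmFit and eBayes in R 4.3.3) that held 4 group means, with 2-sided tests, with Benjamini-Hochberg adjustment over 13371 genes in each of 6 contrasts and a threshold of 0.05. The pipeline was tested on simulated data. The 6 members and the gene lists were chosen with earlier results of these data known.

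Genes named beside the members were the 3 nearest profiles of each, up to 4 called relatives per list and genotype with the smallest p, and the 2 nearest tested genes on each side in the order of assembly GRCm38.p6. Car2, Kcnq1, Spib, Pglyrp1, Aif1 and single markers were chosen after their values were seen. Marker lists were pancreatic acinar, epithelial, endothelial, neutrophil, splenic macrophage, monocyte, B cell, T cell, NK cell, erythroid, conventional DC, cDC1, cDC2 and plasmacytoid DC. Alternatives changed the variance prior, filter, normalization, probe set rule, samples and covariates. Replicate numbers here follow sample order and pair nothing.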

Additional observations from a re-analysis of the deposited data

How the results depend on the processing

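Of 474 recomputed member values with a test, 423 kept their direction and side of the threshold, 26 no longer passed, 15 newly passed and 10 reversed. The 474 include the difference of the CpG effects of Car13, Gp2 and Kcne3, for which a test was computed but is not used above. Of the other 342, computed with no test, all kept their direction and 11 moved by more than the spread within groups. DKO minus WT without stimulation became 0.08 for Lipg and 0.05 for Kcne3 with the title series as a block, 0.20 for Lipg with only title numbers under 20, 0.21 for Lipg with splenic macrophage markers as a covariate, and 0.29 for Lipg and 0.16 for Kcne3 with neutrophil markers as a covariate. With an array left out, it ran from -1.11 to 0.01 for Car13, -0.64 to 0.20 for Lipg and -0.63 to 0.06 for Muc1, and the difference of the CpG effects of Car13 from -1.12 to 0.00263. Kcne3 after CpG did not pass without a filter (limma adjusted p = 0.0539), with the stricter filter (0.0513) or with only the groups compared (0.134), nor did Gp2 in the last (0.0794).

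Counts of called genes moved more. After CpG, DKO minus WT gave 46 with robust variances, 7 with the stricter filter, 3 with only the groups compared, 296 with the title series as a block, 90 with title numbers under 20, 800, 115 and 6 with Y-linked signal, macrophage and neutrophil markers as covariates, and 2 to 267 with an array left out. Averaged over stimulation it gave 21 with trend, 50 and 59 with the title block and titles under 20, 913, 23 and 3 with the covariates, and 1 to 71. Without stimulation it gave 12 with only the groups compared, 2 and 23 by title series, 407 and 6 with Y-linked and macrophage covariates, and 1 to 2. The difference of CpG effects gave 0 with quantile normalization, median centring, the title block or neutrophil markers, 2 with titles under 20, and 0 to 1. CpG in WT gave 1277 to 3226 with an array left out, and CpG in DKO 423 to 1909, and 402 with only the groups compared. The causes were not tested. No paired analysis was possible because the sample titles give the groups no shared numbers.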
